A study of Mus musculus with 2 samples.

Results

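The BCL2 family sets whether a cell keeps its mitochondria intact or commits to apoptosis. Its members were chosen by name. Of 10 listed genes, 6 had a probe whose only gene symbol in the platform annotation was theirs. They are Bcl2l1, Mcl1, Bak1, Bad, Bid and Bcl2l11, carried by 18 spots, out of 10791 named genes with a value. Bcl2, Bax, Bbc3 and Pmaip1 were not analysed here.

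The study addressed mechanical shear of flexor tendon cells from the mouse. RNA of tenocytes, the fibroblast-like cells of tendon, was hybridised on 2 spotted two-colour arrays. On the 6 h array, pooled sheared cells were labelled with Cy5 and pooled control cells with Cy3. On the 12 h array, cells sheared at 50 rpm were labelled with Cy5 and control tenocytes of the same time with Cy3. Strain, age and culture conditions are not given in the labels, and neither is whether the cells of the 12 h array were pooled. Each array has its own control, there was 1 array per time, and the dyes were not swapped, so no difference between conditions could be tested. "Higher" and "lower" describe these arrays.

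All values are log2 ratios, most likely of sheared over control, with the median of all spots of an array subtracted from its values. That median was -0.323 on the 6 h array and -0.479 on the 12 h array, so uncentred values lie lower by these amounts. The base of 2 and the direction are assumptions: with the opposite direction, every higher value would be a lower one. The only error estimate was the spread between different probes of a gene. Its pooled SD was 0.738 log2 at 6 h and 0.855 at 12 h, and 0.740 for the change of a probe from 6 h to 12 h. The 6 h array had 39776 measured spots and the 12 h array 41717. A ratio shows no level, so whether tendon markers were expressed could not be checked. The 8 measured tendon and fibroblast markers had median ratios of 0.07 and 0.24. None of them was at least 2-fold higher (6.2% of all genes at 6 h and 14.5% at 12 h). None was at least 2-fold lower (18.8% and 20.5% of all genes). With 8 genes, these counts are too small to be read against the background. In RNA from whole cultures, fewer cells of a type and less RNA per cell cannot be told apart.

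Apoptosis through mitochondria is controlled by 3 kinds of BCL2 proteins. Anti-apoptotic guardians such as BCL-XL (the product of Bcl2l1) and MCL1 bind and restrain the others. The effectors BAX and BAK, the latter encoded by Bak1, assemble into pores in the outer mitochondrial membrane and release cytochrome c. The BH3-only proteins, here BAD, BID and BIM (the product of Bcl2l11), respond to stress signals and either block the guardians or activate the effectors. MCL1 protein and its mRNA are both short-lived, whereas BCL-XL is more stable. In fibroblasts, BIM and BAD are regulated largely after translation, by phosphorylation, and BID by caspase cleavage, so a transcript ratio describes only part of their control.

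The RefSeq promoter of Mcl1 is shown because the ratio of this gene changed sign between the times on most of its spots. The sequence holds the 250 bases before the start site on the plus strand, in GRCm38.p6 at chr3:95658471-95658720. Capitals mark the only match to a searched motif.
Mcl1 promoter: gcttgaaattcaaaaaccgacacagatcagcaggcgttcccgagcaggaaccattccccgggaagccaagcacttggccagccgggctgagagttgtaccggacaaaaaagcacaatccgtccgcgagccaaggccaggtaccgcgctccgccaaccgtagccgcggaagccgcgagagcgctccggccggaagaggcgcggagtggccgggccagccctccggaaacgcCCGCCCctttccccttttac
Both strands were searched for the TATA box (TATAAA), the CCAAT box (CCAAT), the GC box (GGGCGG), the core of the cAMP response element (TGACG), the AP-1 site (TGACTCA) and the E-box (CACGTG). The 1 match was a GC box on the minus strand, 20 to 15 bases before the start. A GC box occurred in 32.7% of the 32851 promoter windows of that length. The other motifs occurred in 12.4% (TATA box), 33.8% (CCAAT box), 17.8% (TGACG), 4.46% (AP-1 site) and 6.02% (E-box) of the windows. The GC content of the Mcl1 window was 64.4%, against a median of 52.4%.

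The family as a whole did not stand on one side of 0. At 6 h the median of the 6 members was 0.09 (-0.23 without centring), against -0.11 for all genes, and the members ran from -1.17 to 0.88. At 12 h the median was -0.20, against -0.14 for all genes, and the range widened to between -2.60 and 1.19. No member was at least 2-fold higher at 6 h, where 6.2% of all genes were. Lower by at least 2-fold at 6 h were 2 of 6 members, Bcl2l1 and Bak1, where 18.8% of all genes were. At 12 h only Bad was at least 2-fold higher (14.5% of all genes) and only Bcl2l1 at least 2-fold lower (20.5% of all genes). With 6 members, these counts are too small to be read against the background, and the genes are described one by one.

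**Figure D1:**
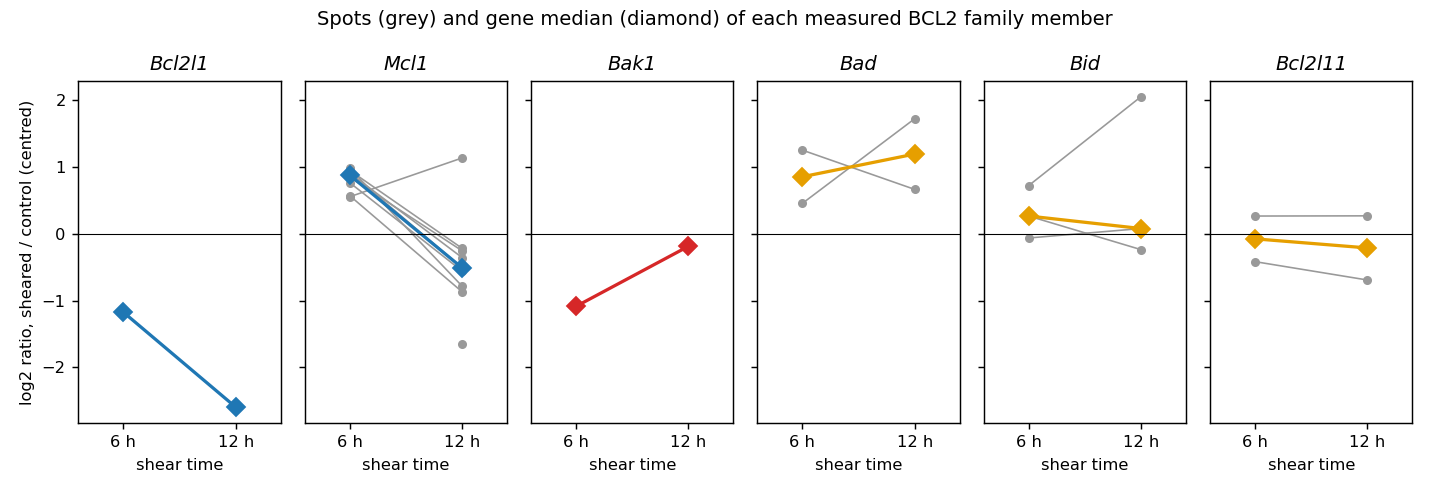
Centred log2 ratio of sheared over control (y axis) at 6 h and 12 h (x axis) for the 6 measured members. Grey points are spots, joined where a spot was measured on both arrays, and diamonds are gene medians, in blue for guardians, red for the effector and orange for BH3-only genes. The Mcl1 spots lie between 0.55 and 0.98 at 6 h and, except for 1 spot at 1.13, below 0 at 12 h.

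Among the guardians, Mcl1 was the best measured member, with 9 spots. At 6 h all 8 spots with a value were higher in the sheared cells, from 0.55 to 0.98, with a median of 0.88 (1.84-fold; probe SD 0.17). Only 5.88% of the 272 genes with 6 or more probes had a smaller probe SD on this array. On the 12 h array, 60.4% of 293 such genes had a smaller probe SD than Mcl1. At 12 h the median of 9 spots was -0.51 (1.42-fold lower; probe SD 0.74). Of these spots, 8 lay below 0, between -1.64 and -0.22, and 1 lay at 1.13. Without that spot the values of the 2 arrays did not overlap. Among all genes Mcl1 moved from percentile 90.8 at 6 h to percentile 35.4 at 12 h.

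The change in Mcl1 was seen spot by spot. Of the 8 spots measured on both arrays, 7 read lower at 12 h than at 6 h, with changes down to -1.77, and 1 read higher by 0.58. The change of the gene median was -1.39 (2.61-fold lower), which is 1.87 times the pooled SD of probe changes in size. Among the 269 genes with 6 or more probes on both arrays, 6 (2.23%) were at least 2-fold lower at 12 h than at 6 h, and 2 had a larger decrease than Mcl1. The spot that read higher carries the same clone accession as another Mcl1 spot, which went from 0.95 to -0.22. The spot with the lowest value at 12 h had no value at 6 h. Position on the array moved with part of this result, where runs of 900 spot numbers were taken as print blocks. In 3 of these blocks lay 6 of the 9 spots, with changes from -1.77 to -1.17 over the 5 measured on both arrays. The other 3 spots changed by -1.27, -1.10 and 0.58. With each block centred, Mcl1 stood at 0.72 and -0.29 and its change at -1.005.

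Bcl2l1, the other measured guardian, was the lowest member on both arrays by its ratio. Relative to genes of similar span on the genome, described below, Bak1 was lower at 6 h. The single Bcl2l1 spot read -1.17 at 6 h (2.25-fold lower) and -2.60 at 12 h (6.04-fold lower). These values are 1.59 and 3.04 times the pooled probe SD in size, and a single spot has no check of its own. Of all genes, 14.7% read lower at 6 h and 2.32% at 12 h. The change from 6 h to 12 h was -1.42, nearly the same as that of Mcl1. Both guardians were therefore at least 2-fold lower at 12 h than at 6 h, as were 7.35% of all genes, and none of the 6 members was at least 2-fold higher (11.5% of all genes). All 8 Mcl1 spots at 6 h and all 9 at 12 h lay above the Bcl2l1 spot, and the gene medians differed by 2.05 and 2.09. Relative to genes of similar span these differences were smaller, with Mcl1 at 0.63 and -0.85 and Bcl2l1 at -0.54 and -1.83.

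Bak1, the only measured pore-forming effector, went the other way between the times. Its single spot read -1.09 at 6 h (2.12-fold lower) and -0.19 at 12 h (1.14-fold lower). The change of 0.90 is 1.21 times the pooled SD of probe changes. At 6 h Bak1 and Bcl2l1 stood close together, 0.09 apart by their single spots. At 12 h they differed by 2.41. Relative to their deciles of gene span, Bak1 stood at -1.27 and -0.41 and Bcl2l1 at -0.54 and -1.83.

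Among the BH3-only genes, Bad read highest. BAD binds BCL-XL and BCL2 when it is not phosphorylated by survival kinases. The 2 Bad spots read 0.45 and 1.25 at 6 h, for a median of 0.85 (1.81-fold; probe SD 0.56). At 12 h they read 1.72 and 0.66, for a median of 1.19 (2.29-fold; probe SD 0.75), which was under 2-fold without centring (0.71). Both spots were thus above 0 on both arrays, but they moved in opposite directions, by 1.27 and -0.59, and the change of 0.34 is smaller than their spread. Every Bad spot lay above the Bcl2l1 spot, by at least 1.63 at 6 h and 3.26 at 12 h. Most genes lay above Bcl2l1 too: only 14.7% of all genes read lower at 6 h and 2.32% at 12 h. The medians of Bad and Bcl2l1, a death gene and the guardian its product binds, were 2.03 apart at 6 h and 3.79 apart at 12 h. Relative to their deciles of gene span, described below, they were less far apart. Bad then stood at 0.67 and 0.97 and Bcl2l1, on 1 spot, at -0.54 and -1.83.

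Bid and Bcl2l11 stayed near 0. BID links death receptors to mitochondria once caspase-8 has cleaved it. Its 3 spots read -0.06, 0.26 and 0.72 at 6 h, for a median of 0.26 (probe SD 0.39). At 12 h they read 0.08, -0.24 and 2.05, for a median of 0.08 (probe SD 1.24; the medians were -0.06 and -0.40 without centring), so the spots of one gene disagreed by more than 2-fold. Bcl2l11 encodes BIM, which binds all the guardians. Its 2 spots read 0.26 and -0.42 at 6 h (median -0.08, probe SD 0.48) and 0.27 and -0.69 at 12 h (median -0.21, probe SD 0.68). Neither gene moved from 6 h to 12 h by more than the spread between its spots.

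Ordered by their ratio, which says nothing of their level in either cell population, the members read Mcl1, Bad, Bid, Bcl2l11, Bak1 and Bcl2l1 from high to low at 6 h. At 12 h the order was Bad, Bid, Bak1, Bcl2l11, Mcl1 and Bcl2l1. Neighbours in either order differed by less than the pooled probe SD of the array in most places. The exceptions were Bcl2l11 over Bak1 at 6 h (1.01 apart), Bad over Bid at 12 h (1.11) and Mcl1 over Bcl2l1 at 12 h (2.09). By role, the guardians had a median of -0.15 at 6 h and -1.55 at 12 h over 2 genes (0.05 and -1.34 within deciles of gene span, and 0.88 and -0.51 with 2 or more probes, which leaves Mcl1 alone), and the BH3-only genes 0.26 and 0.08 over 3 genes (-0.06 and -0.40 without centring).

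**Figure D2:**
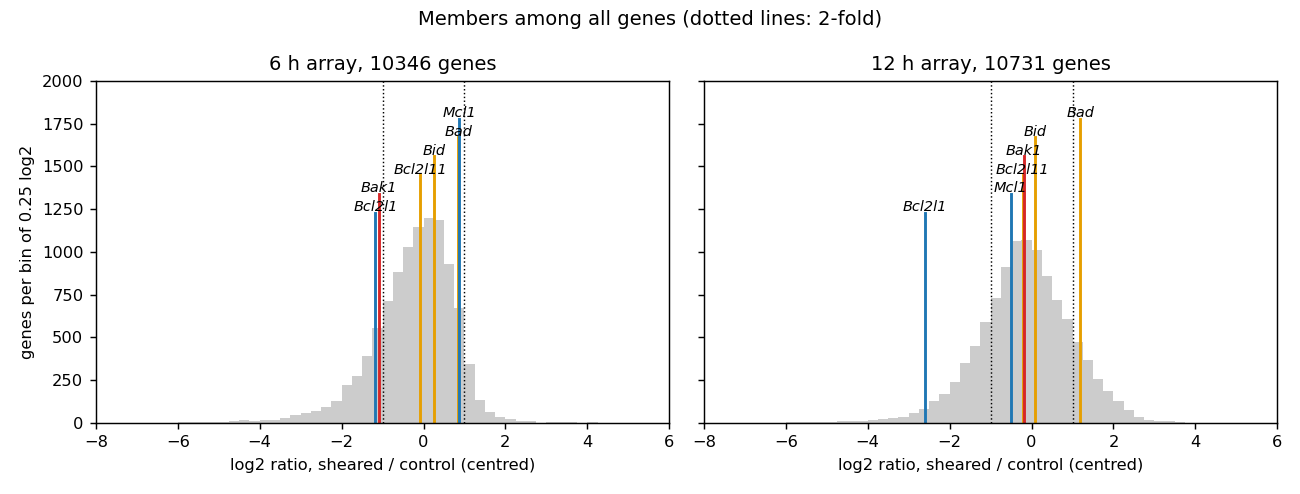
Number of genes (y axis) per bin of centred log2 ratio (x axis) on the 6 h array (left, 10346 genes) and the 12 h array (right, 10731 genes), with the members as lines coloured by role (blue guardians, red effector, orange BH3-only). At 12 h the line of Bcl2l1 at -2.60 lies in the low tail, the line of Bad at 1.19 is past the dotted 2-fold line, and the other 4 members lie between the dotted lines.

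The ratios of all genes were correlated with the length of the gene on both arrays. The length used is the span of the gene on the genome, introns included, from the RefSeq gene table. Across genes, which are not independent replicates, Spearman's rho between span and ratio was -0.31 at 6 h (10326 genes) and -0.37 at 12 h (10712 genes). Bcl2l1 spans 75.1 kb and belongs to span decile 9 of 10, counted from the shortest, whose median was -0.64 at 6 h and -0.77 at 12 h. Relative to that decile, Bcl2l1 stood at -0.54 and -1.83, so it was no longer 2-fold lower at 6 h. Mcl1 spans 6.24 kb, in decile 2, with medians of 0.24 and 0.34. Relative to it Mcl1 stood at 0.63 and -0.85. Bak1 and Bad share decile 3, with medians of 0.19 and 0.22. Relative to it Bak1 stood at -1.27 and -0.41 and Bad at 0.67 and 0.97. Bid and Bcl2l11 stayed within 0.29 of the medians of their deciles. The part of gene span in these ratios was not tested further.

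**Figure D3:**
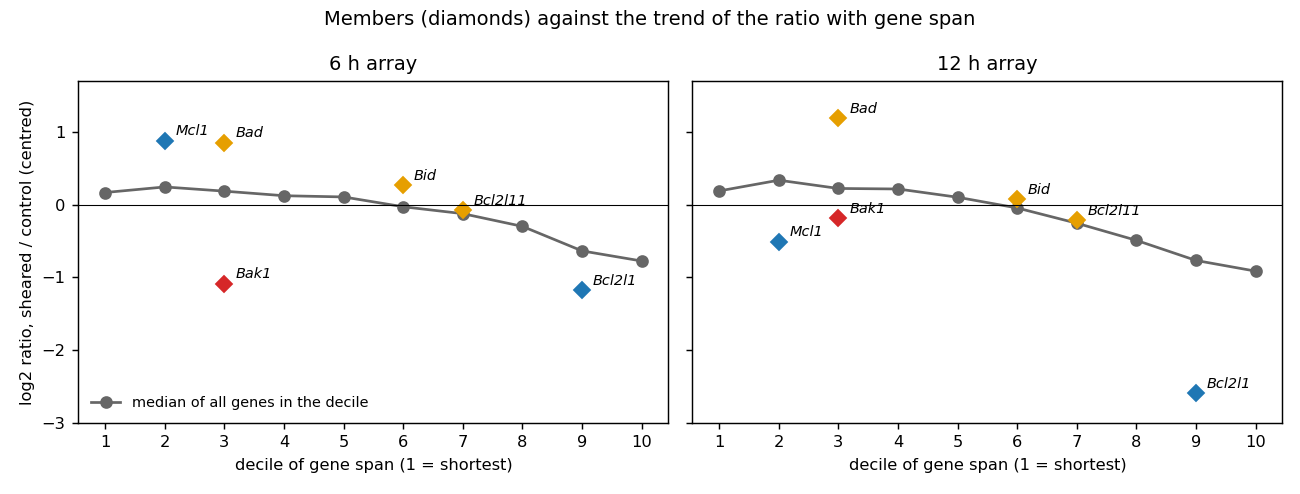
Centred log2 ratio (y axis) against the decile of gene span (x axis, 1 is shortest) at 6 h (left) and 12 h (right). Grey points joined by lines are medians of all genes in a decile, and diamonds are the members, coloured by role as blue guardians, red effector and orange BH3-only. The grey medians descend to -0.78 at 6 h and -0.91 at 12 h in decile 10, and Bcl2l1 lies below the line on both arrays while Mcl1 lies above it at 6 h and below it at 12 h.

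Around the family, 79 of 105 further listed apoptosis genes were measured. Of 78 with a value at 6 h, 6 were higher and 17 lower by 2-fold or more, with a median of -0.21. These are 7.69% and 21.8%, near the 6.2% and 18.8% of all genes. At 12 h, 9 of 78 (11.5%) were higher and 19 (24.4%) lower, against 14.5% and 20.5% of all genes, with a median of -0.30. The corresponding medians of all genes were -0.11 and -0.14. Of 21 other BCL2-related genes, 1 was higher and 5 were lower at 6 h, and 3 were higher and 6 lower of 20 at 12 h. The lowest named in this list encode enzymes that act on MCL1 protein. Usp9x, a deubiquitinase that stabilises MCL1, stood at -1.99 (probe SD 0.34, 6 probes) and -3.03 (probe SD 0.31, 6 probes). Huwe1, a ubiquitin ligase that marks MCL1 for breakdown, stood at -1.84 (probe SD 0.20, 3 probes) and -2.75 (probe SD 0.63). Both genes are long, 102 kb and 135 kb. Relative to their deciles of gene span they still stood at -1.35 and -2.26 for Usp9x and at -1.07 and -1.83 for Huwe1.

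Downstream of the pores, Cycs read high. This gene, which encodes cytochrome c, stood at 1.12 (probe SD 0.23, 6 probes) at 6 h and 1.92 (3.79-fold; probe SD 0.14) at 12 h. It is also a gene of the respiratory chain. Endog, a mitochondrial nuclease, stood at -0.66 (probe SD 0.72) and -1.45 (probe SD 0.95) on 2 probes. Relative to their deciles of gene span, Cycs stood at 0.88, under 2-fold, and 1.58, and Endog at -0.83 and -1.64. The 11 genes of mitochondrial release and the apoptosome had medians of 0.29 (-0.03 without centring) and 0.52 (-0.21 with probes of several symbols kept), with 1 higher and 0 lower at 6 h and 2 in each direction at 12 h. The 11 caspases, caspase substrates and adaptors had medians of -0.84 and -0.69, with 0 higher on either array (6.2% and 14.5% of all genes), 5 lower at 6 h (18.8%) and 3 lower at 12 h (20.5%). Within deciles of gene span these medians were -0.94 and -0.21. Counts in lists of this size are given as a description. Parp1, a repair enzyme cleaved by caspases, stood at -1.11 (probe SD 0.19) and -2.05 (probe SD 0.50) on 3 probes. The adaptor Cradd stood at -2.64 and -1.12 on 1 probe. Relative to their deciles of gene span, Parp1 stood at -0.99 and -1.80 and Cradd at -1.87 and -0.21. Of 4 inhibitor of apoptosis genes, 1 was lower on each array. It was Xiap, a caspase inhibitor, at -1.38 (probe SD 0.41) and -1.83 (probe SD 1.25) on 3 probes. Relative to its decile of gene span, Xiap stood at -1.09 and -1.34.

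Upstream, the death receptor list held members on both sides. Of 13 genes at 6 h, 2 were higher and 3 lower, and of 14 at 12 h, 2 were higher and 2 lower, with medians of -0.16 and -0.33. Of all genes, 6.2% were higher and 18.8% lower at 6 h, and 14.5% higher and 20.5% lower at 12 h. The receptor gene Tnfrsf12a stood at 1.84 and 2.04, and the death ligand gene Tnfsf10 at 1.43 and 1.86, each on 1 probe. In the list of the p53 pathway and other upstream regulators, 2 of 18 were higher on each array, 3 were lower at 6 h and 5 at 12 h. Its lowest named genes were Foxo3, at -2.35 (probe SD 1.19) and -2.38 (probe SD 1.08), and Foxo1, at -1.80 (probe SD 0.29) and -2.45 (probe SD 0.55), each on 2 probes. Relative to their deciles of gene span, Foxo3 stood at -1.71 and -1.62 and Foxo1 at -1.16 and -1.68. FOXO factors activate transcription of Bcl2l11, whose own ratio was near 0. The p53 targets Mdm2 (0.07 and -0.06, 3 probes) and Cdkn1a (0.47 and 0.49, 1 probe) were within 1.5-fold of control.

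**Figure D4:**
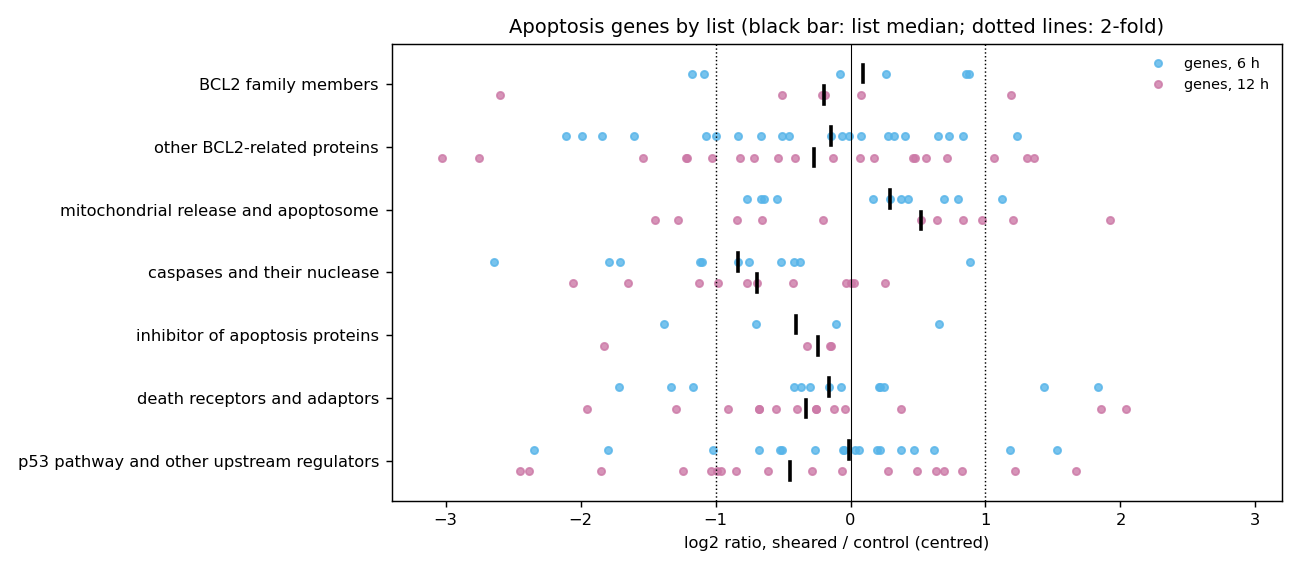
Centred log2 ratio (x axis) of each gene of the BCL2 family and of 6 further apoptosis lists (rows), with blue points for 6 h and pink points for 12 h. Black bars are list medians and dotted lines mark 2-fold; the caspase list has its medians at -0.84 and -0.69, with no gene past the upper dotted line.

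The genes nearest to Bcl2l1 over the 2 arrays, by Euclidean distance among 5345 genes with 2 or more probes on both, were Rps6kc1 (distance 0.08), Ptcd2 (0.09) and Kdm6a (0.10). Kdm6a, a histone demethylase, stood at -1.25 (probe SD 0.09) and -2.53 (probe SD 0.14) on 3 probes. Rps6kc1 stood at -1.25 (probe SD 0.12) and -2.63 (probe SD 0.46) on 2 probes. The 2 probes of Ptcd2 disagreed at 12 h, at -4.55 and -0.52 (probe SD 2.85), so its nearness rests on their midpoint. Rps6kc1 and Kdm6a belong to the longest decile of gene span. With 2 arrays, such likeness means only that the pair of values is similar.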

How the data were processed

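Each array is a sample: RNA of sheared tendon cells (Cy5) against RNA of control cells (Cy3) of the same time, per the labels. The deposited table holds 1 log ratio per spot, taken here as log2, and the authors' normalization, background correction and spot filter are not given in the sources used here. Deposited medians were -0.323 at 6 h and -0.479 at 12 h; each was subtracted. Of 42624 spots, 21701 carried 1 gene symbol in GEO's platform annotation, 1124 several and 19799 none. A gene's value is the median of its probes with 1 symbol. Gene IDs of 21650 of these spots, and of all 18 member spots, were found in RefSeq's GRCm38.p6 gene table, and 0 symbols changed. Spot intensities were not used, so depth is unknown, and precision is limited by having 2 arrays.

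No test was made, since each time had 1 array. Counts use 2-fold. The share of all genes past it stands beside the counts of the members and of the pooled further lists. It also stands beside those of the caspase, death receptor, leukocyte and tendon marker lists. It applies to the other lists too. The members and gene lists were chosen with earlier results of these data known. All measured members are named, and, of each further list, the 2 genes with the largest mean absolute log2 among those with all probes on one side of 0 on each array and at least 2-fold on 1 array, which left 1 gene for the inhibitors of apoptosis. The genes nearest to the member farthest from 0, and Mdm2 and Cdkn1a, were also named; Trp53 was not analysed here. Alternatives were uncentred values, the mean of probes, 2 or more probes per gene, probes of several symbols kept, genes on both arrays, equal scale, centred print blocks (900 spot numbers each), other folds and per-probe changes. Centring within deciles of gene span, and the treatment of Mcl1 spots, were chosen after seeing the data. The comparisons of Mcl1 and Bad with Bcl2l1 were not among those planned. The code for the gene summaries and counts was run on simulated data with less spread than these arrays and shifts well past 2-fold. That run checks the code and says nothing of how reliable the counts are here. Python 3.11.15, pandas 2.3.3 and numpy 2.4.6 were used.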

Additional observations from a re-analysis of the deposited data

Results flagged for a closer look

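Mcl1 stood above 0 at 6 h (0.88) and below 0 at 12 h (-0.51), the only member whose value lay on opposite sides of 0 at the 2 times. The difference was not tested, as each time had 1 array. The p53 target Mdm2 also lay on opposite sides, at 0.07 and -0.06, both far within the spread between its probes at 6 h (SD 0.63) and 12 h (SD 0.22). No value was screened for outlying samples, because no group held more than 1 array.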

How the results depend on the processing

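None of the 153 alternative values of single members differed from its main value by as much as the pooled probe SD. No member past 2-fold changed sign. Part of these values could not differ from the main value. No member had a spot with several symbols, every member was on both arrays, and Bcl2l1 and Bak1 have 1 spot each. For Bcl2l1 and Bak1 the mean of probes and the per-probe change repeat the main value. Requiring 2 or more probes gives no value for them. With each of its 9 spots left out in turn, Mcl1 stood between 0.84 and 0.91 at 6 h and between -0.53 and -0.43 at 12 h, with changes from -1.44 to -1.28. With the spots of one clone averaged it stood at 0.84 and -0.53. Without centring, the family median at 6 h was -0.23 in place of 0.09, and Bid stood at -0.06 and -0.40. The family median of the change, -0.16, turned to 0.09 with the mean of probes, 0.01 with print blocks centred and 0.00 with per-probe changes, and that of Bid to 0.32, 0.13 and 0.14.

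Of the 371 other alternative values, 35 moved. The share of all genes was not computed at these settings, so the counts below cannot be read against it. Over genes with 2 or more probes, which drops Bcl2l1 and Bak1, the guardian median was that of Mcl1 alone (0.88 and -0.51). With that setting 0 members were 2-fold lower at 6 h or 12 h and 1 was lower at 12 h than at 6 h, and among the other apoptosis genes 3 were higher at 6 h and 4 lower in the change. Without centring, 0 members were 2-fold higher at 12 h, and the other apoptosis genes gave 3 higher at 6 h, 4 higher and 35 lower at 12 h, and 3 higher and 15 lower in the change. Within deciles of gene span, 1 member was 2-fold lower at 6 h (Bak1) and 0 were higher at 12 h. With equal scale, 1 member (Bak1) and 8 other apoptosis genes were at least 2-fold higher at 12 h than at 6 h, and with the mean of probes 3 of the latter were. From 1.5-fold, 2 members were higher at 6 h (Mcl1 and Bad) and 1 in the change. The other apoptosis genes then gave 14 higher and 27 lower at 6 h, 16 and 33 at 12 h, and 10 and 21 in the change. From 3-fold, 0 members were lower at 6 h, higher at 12 h or lower in the change, and the others gave 1 and 10, 4 and 9, and 1 and 1. The thresholds change these counts by construction. So do leaving out the centring, which lowers every value, and requiring 2 or more probes, which drops genes. The cause of the other moves was not tested.

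Centring within deciles of protein length was not run, because no protein table was used here; gene span took its place. No paired analysis was possible because each time had 1 array. Without spot intensities, signal over background could not be assessed.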

Other observations

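The disagreement between the 2 Mcl1 spots of one clone accession can be set beside other such pairs. On the 12 h array these spots lay 1.35 apart, and on the 6 h array 0.40 apart. Over 547 pairs of spots with the same gene and accession, the median distance was 0.91 at 12 h, and over 495 pairs it was 0.66 at 6 h. The 90th percentiles of these distances were 2.39 and 2.16. In their changes from 6 h to 12 h, 490 such pairs lay a median of 0.70 apart, with a 90th percentile of 1.85. The changes of Bak1 (0.90) and Bcl2l1 (-1.42) rest on 1 spot each.

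Markers of other cell types had median ratios at 6 h and 12 h of 0.39 and 0.46 for 7 leukocyte genes, -0.42 and -0.56 for 5 endothelial genes, 0.23 and 0.10 for 5 skeletal muscle genes and -0.57 and -0.32 for 7 epithelial genes. In the leukocyte list 3 genes were at least 2-fold higher at 12 h (14.5% of all genes). In the same list 2 were at least 2-fold lower on each array (18.8% and 20.5% of all genes). These counts are too small to be read against the background. The part of these cell types in the values of the BCL2 family was not tested.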
